A study of Mus musculus with 7 samples.

Results

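Glycine and GABA transmission was followed through 7 genes in 7 mouse brain tumours. They were Slc6a5, Slc32a1, Gad1 and Gad2 on the sending side of the inhibitory synapse, and the glycine receptor genes Glra1, Glra3 and Glrb on the receiving side. They are 7 of the 37620 gene identifiers counted. The members were chosen by their known function and from their CPM in these same tumours, so the levels below are a description and carry no support from a test. CPM is the usual depth-scaled read count of a gene, here over library sizes scaled by TMM factors. All 7 genes passed the filter on low counts.

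The tumours grew in the brains of nude mice, which lack a working thymus, after implantation of stem-like glioblastoma cells that were derived from neural stem cells, with the subventricular zone given as their source. Of the tumours, 4 came from the line GSC1, labelled lgT/Ras, and 3 came from the line GSC2, which carried shp53, Nf1-/- and CDK4. Each genotype is present in 1 line, and each tumour gave 1 library of total RNA, so a difference of genotype cannot be told apart from a difference between 2 lines. The tumours of a line are called independent in the series, but which mice they came from is not given. Age and sex of the hosts are not stated, and tumour cells were not separated from host brain in any step that the labels describe.

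Inhibitory neurons make GABA from glutamate with 2 glutamate decarboxylases, encoded by Gad1 and Gad2. The vesicular transporter encoded by Slc32a1 loads GABA and glycine alike into synaptic vesicles, while the plasma membrane transporter GlyT2, encoded by Slc6a5, brings glycine back into the terminals of glycinergic neurons. Glycine opens chloride channels made of alpha subunits, encoded by Glra1 to Glra4, and of the beta subunit of Glrb, which is anchored at the synapse by gephyrin. In the adult brain GABA is used throughout, whereas neurons that release glycine lie mostly in the brainstem, the spinal cord and the cerebellum.

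The libraries held 18643155 to 32643408 reads on genes. Neural stem cell markers were present in all 7, with Nes, an intermediate filament gene, at 116 to 662 CPM and Vim, another, at 1618 to 3624 CPM. Neuronal transcripts differed widely. The neuron level, the geometric mean CPM of 12 pan-neuronal genes, was 98.5, 39.6, 325 and 284 CPM for the GSC1 tumours, listed by replicate number here and below, and 68.2, 188 and 122 CPM for the GSC2 tumours. Genes of the HOX family, which mark hindbrain and spinal cord, summed to 618 CPM in GSC1 replicate 3, 160.4 CPM in GSC1 replicate 4 and 6.81 to 29.2 CPM in the other 5. Replicates 3 and 4 of GSC1 are called hindbrain-rich here. Other cell type markers differed between tumours as well. The 8 astrocyte genes summed to 14090 and 12220 CPM in the pair and 2111 to 7327 CPM elsewhere. Of these, 4 were higher in both tumours of the pair than in any other tumour. The share of all genes for which this was so was not counted, here or for the lists below. The 8 oligodendrocyte genes summed to 16730 and 6346 CPM in the pair against 605 to 8688 CPM elsewhere. GSC1 replicate 4 thus lay within the range of the others, and 0 of the 8 were higher in both. The 8 stem cell markers were lowest there in sum, at 2156 and 2284 CPM against 3182 to 4692 CPM. Vim alone made up 1618 and 1772 CPM of the sums in the pair. Only 3 of the 8 were lower in both tumours of the pair than in any other tumour, and 0 were higher. The part of these cell types in the levels below was not tested. GSC1 replicates 3 and 4 and GSC2 replicate 3 were also poor in long transcripts. Their median log2 deviation for transcripts of at least 8000 bases minus that for transcripts of at most 2000 bases was -0.40, -0.35 and -0.69, against 0.02 to 0.64 elsewhere. In bulk RNA, fewer cells of a type and less RNA per cell cannot be told apart.

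Slc6a5 separated the hindbrain-rich tumours from all others. The GSC1 tumours had 0.724, 0.882, 135 and 81.1 CPM of it in order of replicate number, and the GSC2 tumours had 0.509, 1.89 and 0 CPM. The lower of the 2 high tumours stood 42.9 times above the highest of the other 5. Those 5 held 0 to 54 reads. No read was found in GSC2 replicate 3, which allows up to 0.150 CPM (3 reads). Among the low tumours GSC2 replicate 2 was highest, with an exact 95% Poisson interval of 1.42 to 2.47 CPM, above the intervals of the other 4, the nearest of which reached 1.31 CPM. Poisson intervals and limits cover counting error only. The longest Slc6a5 transcript has 7065 bases, and the gene was high in 2 of the 3 libraries poor in long transcripts.

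**Figure D1:**
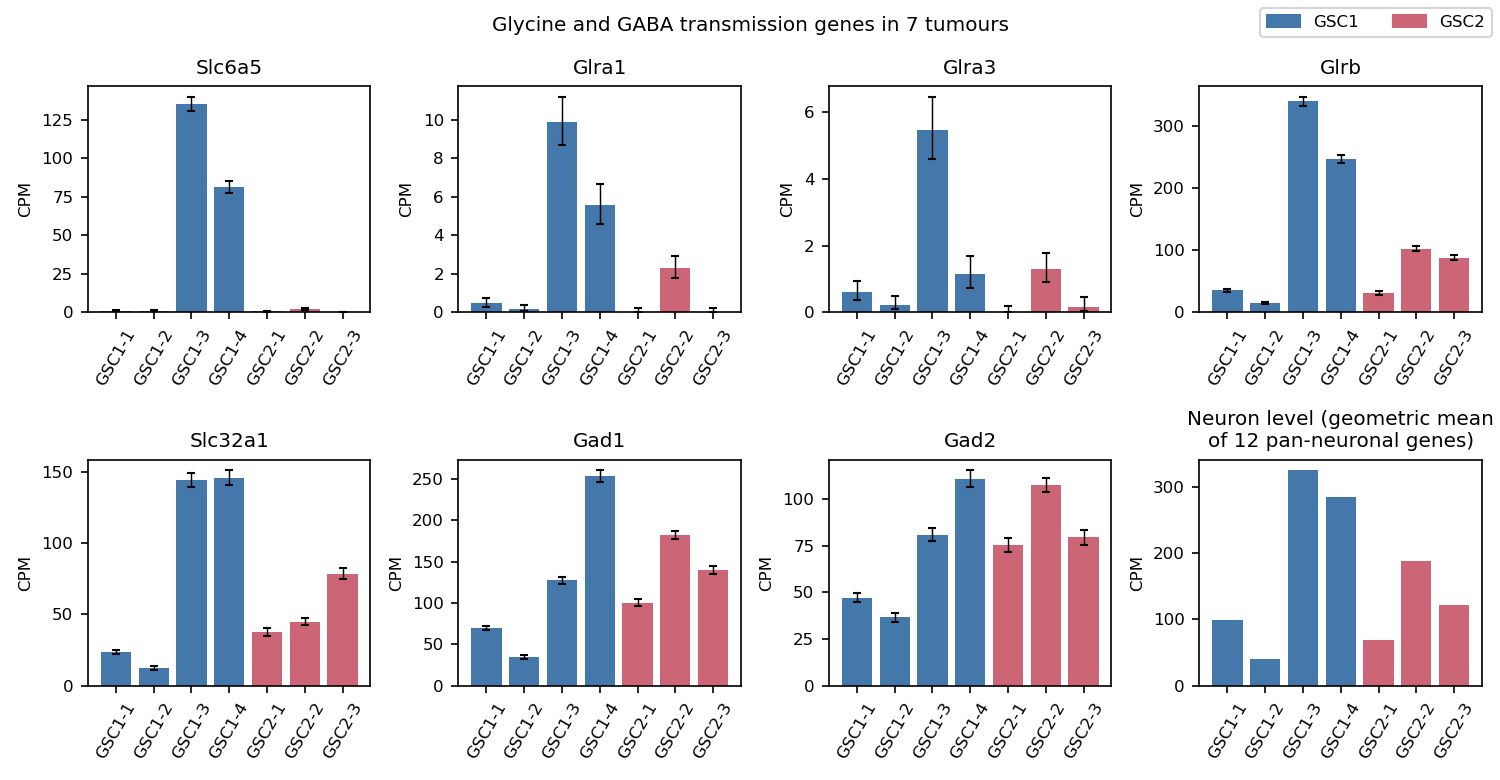
CPM of the 7 members, and the neuron level, in each tumour; bars are single libraries, blue for GSC1 and red for GSC2, and whiskers are exact 95% Poisson intervals of the read counts (the neuron level has none). Slc6a5 and Glra1 were high in GSC1 replicates 3 and 4, while Gad1 and Gad2 were present at 34.9 CPM or more in every tumour.

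The promoters of Slc6a5, Glrb and Gad1 are shown because these genes had a very wide, an intermediate and a narrower range over the tumours. The RefSeq table (GRCm38.p6) held a window for 6 of the 7 members, Glra1 being the one without. Each sequence is the 250 bases before the transcription start, 5′ to 3′ on the gene's strand, with CpG dinucleotides in capitals. The windows lie at chr7:49910049-49910298 (plus strand), chr3:80913661-80913910 (minus strand) and chr2:70561879-70562128 (plus strand). For Slc6a5, which has a pair of windows in the table, the more upstream is given.

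Slc6a5: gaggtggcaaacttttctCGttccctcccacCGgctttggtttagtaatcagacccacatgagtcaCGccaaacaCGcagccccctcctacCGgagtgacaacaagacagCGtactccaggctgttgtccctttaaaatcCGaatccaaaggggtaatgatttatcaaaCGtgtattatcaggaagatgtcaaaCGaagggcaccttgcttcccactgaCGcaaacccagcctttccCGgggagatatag
Glrb: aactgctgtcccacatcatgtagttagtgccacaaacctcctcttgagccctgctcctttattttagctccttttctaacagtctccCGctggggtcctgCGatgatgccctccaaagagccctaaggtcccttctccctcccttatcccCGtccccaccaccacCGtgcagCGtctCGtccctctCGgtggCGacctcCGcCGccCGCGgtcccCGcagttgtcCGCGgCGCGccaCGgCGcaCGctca
Gad1: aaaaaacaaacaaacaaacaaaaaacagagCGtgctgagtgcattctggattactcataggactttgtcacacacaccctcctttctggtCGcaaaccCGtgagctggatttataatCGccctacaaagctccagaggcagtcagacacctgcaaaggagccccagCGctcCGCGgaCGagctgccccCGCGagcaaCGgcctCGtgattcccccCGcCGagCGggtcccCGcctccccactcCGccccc

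The Slc6a5 window held 11 CpG and was 50.4% G or C, the Glrb window held 20 CpG at 62.4%, and the Gad1 window held 17 CpG at 58.0%. The median over 32851 windows was 6 CpG and 52.4%, so none of the 3 was poor in CpG. The letters TAAT, the core bound by many homeodomain factors, occurred 3 times in the Slc6a5 window on either strand, 0 times in that of Glrb and 2 times in that of Gad1. Of all windows 54.9% held at least 1. TATAAA was found once in the Gad1 window, on the strand opposite to the one printed, and on either strand in 12.4% of all windows. GGGCGG, the GC box, was found once in the Glrb and once in the Gad1 window, both on the opposite strand. On either strand it was found in 32.7% of all. A match of letters is a description and not a binding site.

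Glrb, the gene of the glycine receptor beta subunit, followed the same order at the top but was never absent. Its CPM values were 34.8, 14.3, 340.3 and 247 in the 4 GSC1 tumours by replicate number, and 30.6, 103 and 87.6 in the 3 GSC2 tumours. GSC1 replicate 4, the lower of the hindbrain-rich pair, had 2.41 times the highest value of the other 5 tumours. Per kilobase of its longest transcript Glrb was the most abundant member, with a mean over the 7 tumours of 40.4 CPM per kb. Gad1 came next at 36.0 CPM per kb, followed by Slc32a1 at 24.8, Gad2 at 13.4, Slc6a5 at 4.46, Glra1 at 1.10 and Glra3 at 0.195. These means hide spreads between tumours that are larger than the step from Glrb to Gad1: Gad1 per kilobase exceeded Glrb in GSC1 replicates 1 and 2 and in all 3 GSC2 tumours.

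Glra1, the adult alpha subunit gene, was low everywhere and highest in the hindbrain-rich pair. By replicate number the GSC1 libraries gave 16, 4, 249 and 117 reads of Glra1, which is 0.463, 0.147, 9.89 and 5.56 CPM. The GSC2 libraries gave 0, 65 and 0 reads, which is 0, 2.28 and 0 CPM, with a limit of 0.153 CPM in GSC2 replicate 1 and 0.150 CPM in replicate 3. GSC2 replicate 2 thus carried Glra1 in the absence of a HOX signal like that of the hindbrain-rich pair, its HOX sum being 10.0 CPM.

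Glra3, another alpha subunit gene, was the rarest member. It reached 5.48 CPM in GSC1 replicate 3, from 138 reads. GSC1 replicate 4 had 1.14 CPM, with an interval of 0.731 to 1.70 CPM that takes in the 1.30 CPM of GSC2 replicate 2. In the remaining 4 tumours it lay between 0 and 0.608 CPM, from at most 21 reads. So Glra3 was high in 1 of the hindbrain-rich tumours and did not set the other apart.

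Glra2, a further alpha subunit gene that is known for expression in the immature brain and was not a member, made up the largest share of alpha subunit transcripts in all 7 tumours. Per kilobase it gave 47.3, 83.0, 53.3 and 57.7% of the sum of Glra1 to Glra4 in the GSC1 tumours, and 100, 66.1 and 99.4% in those of GSC2. In GSC1 replicate 1 and GSC1 replicate 2 and in GSC2 replicate 1 these shares rest on only 65, 50 and 32 alpha reads. Glra1 gave 35.6, 10.9, 34.6 and 39.4% in the GSC1 tumours, against 0, 28.04 and 0% in the GSC2 tumours. Glra1 shares of the hindbrain-rich pair therefore lay beside that of GSC1 replicate 1, and it was the amount, not the share, in which the pair stood apart. Glra4 was counted only in GSC1 replicate 3, at 1.11 CPM. Summed per kilobase, the alpha genes amounted to 4.74 to 14.2% of Glrb.

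**Figure D2:**
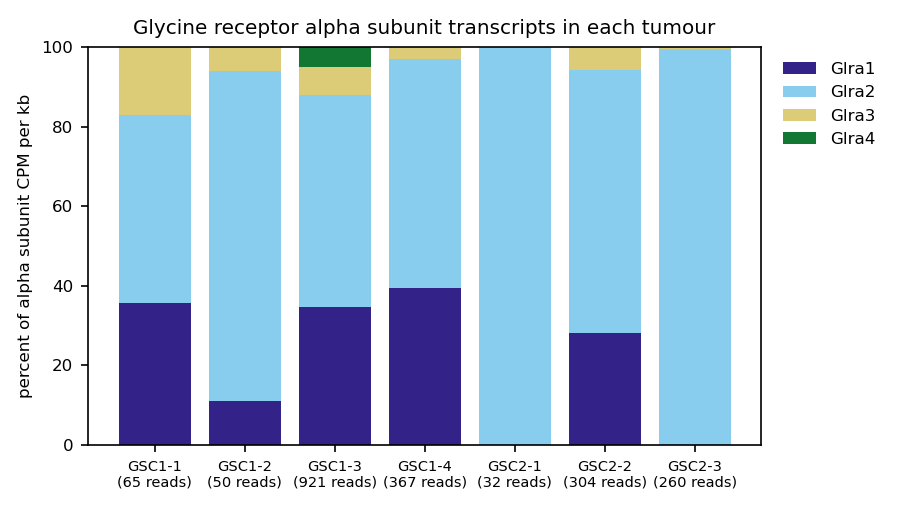
Share of each glycine receptor alpha subunit gene in the summed CPM per kilobase of Glra1 to Glra4, 1 stacked bar per tumour, with the number of alpha reads under each bar. Glra2 is the largest share in all 7, from 47.3 to 100%.

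Slc32a1, the vesicular transporter gene shared by GABA and glycine neurons, was highest in the hindbrain-rich pair, though by less than Glrb. It stood at 23.6, 12.2, 144 and 146 CPM across the GSC1 tumours and at 37.6, 44.6 and 78.3 CPM across the GSC2 tumours. The 2 high values had overlapping counting intervals, and the lower was 1.84 times the highest of the other 5. Per kilobase, Slc6a5 came to 37.2 and 22.1% of Slc32a1 in the hindbrain-rich pair, and to between 0 and 2.87% in the other 5.

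Gad1 and Gad2, the decarboxylase genes, did not set the hindbrain-rich pair apart. Gad1 was counted at 69.7, 34.9, 127 and 254 CPM in the GSC1 series and at 101, 182 and 140 CPM in the GSC2 series. GSC1 replicate 4 was highest, and GSC1 replicate 3 lay below 2 of the GSC2 tumours. Gad2 gave 47.2, 36.6, 80.8 and 111 CPM for GSC1 and 75.4, 108 and 79.5 CPM for GSC2. Here the counting intervals of GSC1 replicate 4 (106 to 115 CPM) and GSC2 replicate 2 (104 to 112 CPM) overlapped, as did those of GSC1 replicate 3 and GSC2 replicate 3. The highest Gad2 level was 3.03 times the lowest, against 7.27 times for Gad1, 11.97 times for Slc32a1 and 23.7 times for Glrb.

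Gad1 exceeded Gad2 per kilobase in all 7 tumours, by 1.52 times in GSC1 replicate 2 to 3.65 times in GSC1 replicate 4. The latter also held cerebellar genes, with the Purkinje and granule cell gene list at 1445 CPM in sum against 31.6 to 306 CPM in the other 6. The 2 decarboxylase genes together, per kilobase, were 0.960 times Slc32a1 in GSC1 replicate 3 and 1.72 to 4.34 times in the other 6. GSC1 replicate 3 was thus the tumour with the least decarboxylase and the most Slc6a5 for its vesicular transporter.

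Set against the neuron level of the same tumour, Slc6a5, Glra1 and Glrb were still highest in the hindbrain-rich pair, and the other 4 members were not. Slc6a5 was 41.7 and 28.5% of the neuron level in the hindbrain-rich pair and at most 2.23% elsewhere. Glrb was 105 and 86.9% in the pair and 35.4 to 71.5% in the others, so both were still above the other 5. Glra1 was 3.04 and 1.96% in the pair and 0 to 1.21% in the others. Glra3 was 1.69% in GSC1 replicate 3 but 0.402% in GSC1 replicate 4, within the 0 to 0.691% of the others. Slc32a1 no longer stood apart, with 44.3 and 51.2% in the pair inside the range of 23.8 to 63.9% of the others. Gad1 and Gad2 were lowest in GSC1 replicate 3, at 39.2 and 24.9%. In GSC1 replicate 4 Gad1 was 89.3%, the highest of the GSC1 tumours, and Gad2 was 39.0%. Gad1 reached 71.9 ± 23.4% (SD, n = 4) of the neuron level in GSC1 and 120 ± 25.6% (SD, n = 3) in GSC2, and its line values did not overlap. Against Snap25 and Rbfox3 alone they did overlap, since Gad1 then came to 137% in GSC1 replicate 2 and to 115% in GSC2 replicate 2. How many of all genes do not overlap once set against the neuron level was not counted. Gad2 came to 51.1 ± 29.2% and 77.6 ± 28.8% and overlapped.

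**Figure D3:**
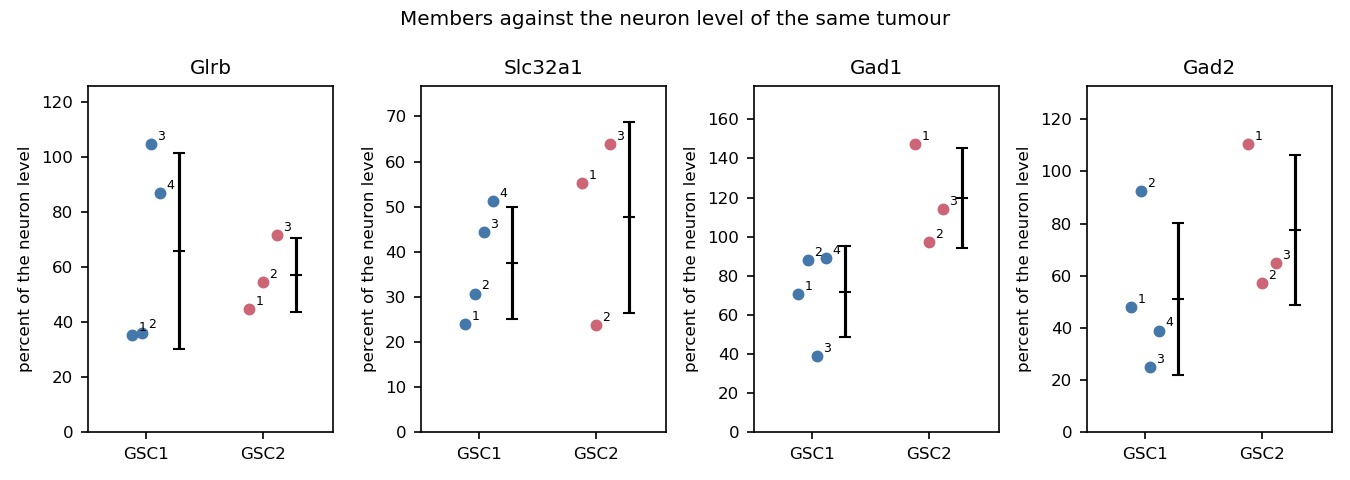
Glrb, Slc32a1, Gad1 and Gad2 in percent of the neuron level (the geometric mean CPM of 12 pan-neuronal genes) of the same tumour; points are tumours with their replicate number, and black marks are means with SD. Glrb is highest in GSC1 replicates 3 and 4, and Gad1 is 97.2% or more in the GSC2 tumours and 89.3% or less in the GSC1 tumours. Against Snap25 and Rbfox3 alone, the Gad1 values of the 2 lines overlapped.

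The genes with the profile most like Slc6a5 were taken over the 7 tumours from 11762 genes that reached 10 CPM in at least 1. Likeness was the root mean square difference between mean-centred log2(CPM + 0.5) profiles. Among the 8 nearest were Mab21l2 (0.51), Wif1, a secreted Wnt inhibitor (0.70), Hoxc4 (0.79), Hoxb3 (0.86), Dao, the D-amino acid oxidase gene (0.88), Hoxb5 (0.91) and Dbh, which makes noradrenaline (0.94). Mab21l2 was at 45.1 and 56.5 CPM in the hindbrain-rich pair and at most 0.701 CPM elsewhere. With 2 CPM added in place of 0.5 CPM, 6 of the 8 were named again. Of the members, Glra1 was nearest to Slc6a5 at 1.55, followed by Glrb (2.02), Glra3 (2.16), Slc32a1 (2.31), Gad1 (2.71) and Gad2 (2.81). Glra1 and Glra3 never reached 10 CPM and so were not among the genes ranked.

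**Figure D4:**
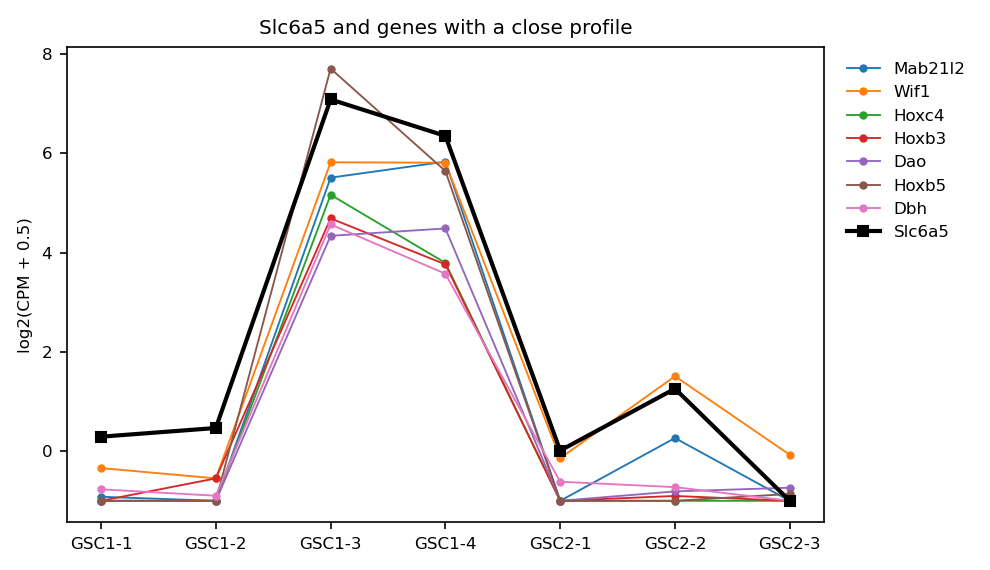
log2(CPM + 0.5) of Slc6a5 (black squares) and genes among the 8 with the nearest profile in the 7 tumours; lines join the values of 1 gene and imply no order of tumours. All genes shown peak in GSC1 replicates 3 and 4, and Wif1 and Mab21l2 share the small rise of Slc6a5 in GSC2 replicate 2.

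Gad2 had a flat profile with many close neighbours. The nearest were Acer2, a ceramidase gene (0.10), Zswim5 (0.13), Cacng7, an AMPA receptor auxiliary subunit gene (0.15), Myo16 (0.18), Cnnm2 (0.18), Tgfa (0.19), Il18 (0.19) and Nfia (0.19), of which 4 of 8 were named again with 2 CPM added. Gad1 lay at 0.36, rank 407 of 11762.

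Transcription factors of hindbrain and spinal inhibitory neurons followed Slc6a5 in part. Pax2 stood at 17.8 and 8.94 CPM in the hindbrain-rich pair and at 0.0579 to 4.42 CPM in the others, highest of those in GSC2 replicate 2. Lbx1, a dorsal spinal cord and hindbrain factor, was at 19.9 and 6.09 CPM in the pair and at most 0.404 CPM elsewhere. Lhx1 differed from both, with 5.96 to 13.9 CPM in all 4 GSC1 tumours and 0 to 1.90 CPM in GSC2. Over the 14 genes of this list, 7 were higher in both tumours of the pair than in any other tumour and 0 were lower. The same was so for 10 of 12 pan-neuronal genes and 13 of 14 HOX genes, and for 0 of 8 oligodendrocyte genes. The count thus does not set this list apart from neuronal genes in general, and the share over all genes was not counted. The forebrain inhibitory neuron list was mixed: of its 15 genes in the tables, 2 (Sst and Pvalb) were higher in both than in any other tumour and 7 were lower. The list's sum was highest in the pair, at 545.6 and 477 CPM against 91.0 to 242 CPM. The 7 lower genes included the interneuron factors Dlx1 and Dlx2, named after their values were seen. Dlx1 was 3.57 and 4.37 CPM in the pair and 14.0 to 34.6 CPM in the other 5, and Dlx2 was 1.63 and 5.47 CPM against 9.67 to 22.9 CPM.

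The comparison that the design implies is GSC2 against GSC1. For the members it gave folds toward GSC1 for the glycine genes and near 0 for the decarboxylases, none of which passed. The mean of Slc6a5 was 54.5 ± 65.8 CPM (SD, n = 4) over the GSC1 tumours and 0.800 ± 0.979 CPM (SD, n = 3) over those of GSC2, a log2 fold change of -6.03 (SE 2.29). The folds were -2.36 (SE 1.93) for Glra1, -1.90 (SE 1.5) for Glra3, -1.11 (SE 1.05) for Glrb and -0.60 (SE 0.86) for Slc32a1. They were 0.21 (SE 0.62) for Gad1 and 0.34 (SE 0.40) for Gad2. By edgeR's quasi-likelihood test with Benjamini-Hochberg adjustment over 16068 genes, all 7 had an adjusted p of 0.9999, and 0 of 7 were called. Over all genes 0 were called as well (0%), with 677 at an unadjusted p under 0.05, while limma-voom called 1 and DESeq2 192 (1.19%), no member among them. In simulated counts the edgeR test recovered 4% of planted 2-fold changes and 28% of 4-fold changes. It recovered 70% of 8-fold and 86% of 16-fold changes. A gene that was not called can therefore still differ between the lines. The median fold was -1.11 over the members and -0.03 over all genes tested. The line values overlapped for all 7 members. They did not overlap for 5.58% of all genes.

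These folds rested on the hindbrain-rich pair. Without GSC1 replicates 3 and 4, a choice made after seeing the data, the fold was 0.04 for Slc6a5, 1.35 for Glra1, 0.27 for Glra3, 1.57 for Glrb and 1.55 for Slc32a1. That turns the direction of all 5, again with no member called. A shift upward was fixed by the choice, since the pair held the 2 highest GSC1 values of every member, Gad1 and Gad2 included. Gad1 and Gad2, which already lay above 0, went to 1.42 (SE 0.41, adjusted p = 0.178) and 1.05 (SE 0.29, adjusted p = 0.166) in edgeR. Their rise carries no support for a line difference either. In this setting 0.272% of 16165 genes were called. The pan-neuronal sums of the 2 remaining GSC1 tumours were 1466 and 664 CPM, against 1056 to 3000 CPM in GSC2.

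Other genes of inhibitory transmission were mixed in their line folds. Of 47 genes in 3 lists (uptake and breakdown, postsynapse, GABA receptors) 42 were tested and 0 were called by edgeR (2 at an unadjusted p under 0.05). There were 14 with a fold above 0 and 28 below, with a median of -0.20. Line values did not overlap for 3 of the 42, 2 higher in GSC2 and 1 higher in GSC1, against 5.58% of all genes in either direction. By tumour, 11 of 15 uptake and breakdown genes were higher in both tumours of the hindbrain-rich pair than in any other. The same was so for 5 of 12 postsynaptic and 9 of 20 GABA receptor genes, beside 10 of 12 pan-neuronal genes. Lower in both was 1 postsynaptic gene. The share over all genes was not counted.

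Uptake and breakdown genes ranged widely over the tumours, and 0 of the 15 tested were called (3 folds above 0, 12 below, median -0.48). Slc6a11, a GABA transporter gene of astrocytes, spanned 13.1 CPM in GSC1 replicate 2 to 750.1 CPM in GSC1 replicate 3. Slc6a9, which encodes the glial glycine transporter GlyT1, was present in all tumours, at 57.0 to 335 CPM, and was 335 and 199 CPM in the hindbrain-rich pair. The GABA transaminase gene Abat had 30.8 to 460 CPM. Slc38a1, a glutamine transporter gene, had the narrowest range of these, 175 to 335 CPM. The folds of these 4 lay between -0.98 and -0.20.

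Of 11 postsynaptic genes tested 0 were called, with 5 folds above 0, 6 below and a median of -0.04. Gphn, the gephyrin gene, kept to 37.1 to 49.9 CPM in all 7 tumours (log2 fold change 0.04, SE 0.20) while its partner Glrb ranged over 23.7 times. Slc12a5, the neuronal chloride exporter gene that makes GABA and glycine inhibitory, was at 376 and 396 CPM in the pair and at 38.5 to 195 CPM in the others. Slc12a2, a chloride importer gene, was at 85.3 to 218 CPM. Shisa7, a GABA-A receptor auxiliary gene named after its values were seen, had 5.94 ± 2.62 CPM (SD, n = 4) with GSC1 and 13.7 ± 2.41 CPM (SD, n = 3) with GSC2, and its line values did not overlap (1.21, SE 0.39, unadjusted p = 0.0153 and adjusted p = 0.955 by edgeR).

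Of 16 GABA receptor genes tested 0 were called, with 6 folds above 0, 10 below and a median of -0.20. Gabbr1, a GABA-B receptor subunit gene with the highest mean CPM of the list, was at 84.7 to 596 CPM. Gabra6, the cerebellar granule cell subunit gene, named after its values were seen, was at 115 CPM in GSC1 replicate 4, 1.15 CPM in GSC1 replicate 3 and 0 in the other 5.

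Gldc was the pathway gene nearest to a difference between the lines, and was singled out after its values were seen. It encodes the glycine decarboxylase of the mitochondrial glycine cleavage system, which breaks glycine down. Levels in the GSC1 tumours were 5.53, 7.31, 5.12 and 12.6 CPM, and those in the GSC2 tumours were 32.8, 31.5 and 37.4 CPM. All 3 GSC2 tumours lay above all 4 GSC1 tumours, as was so for 3.06% of all genes. The log2 fold change was 2.15 (SE 0.36), with an unadjusted p of 0.000414 and an adjusted p of 0.337 in edgeR's test, so it did not pass. Its adjusted p ran from 4.43e-05 in DESeq2 to 1.0 without GSC2 replicate 1. In edgeR it passed without the hindbrain-rich pair (2.38, SE 0.28, adjusted p = 0.0397) and without the 3 libraries poor in long transcripts (2.32, SE 0.28, adjusted p = 0.0415), where 0.348% of 15813 genes were called. Over all settings run its fold lay between 1.96 and 2.51. The other genes of the cleavage system were not called, all 3 named after their values were seen: Amt had a fold of 0.12 (SE 0.48), Gcsh -0.05 (SE 0.30) and Dld -0.20 (SE 0.18).

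**Figure D5:**
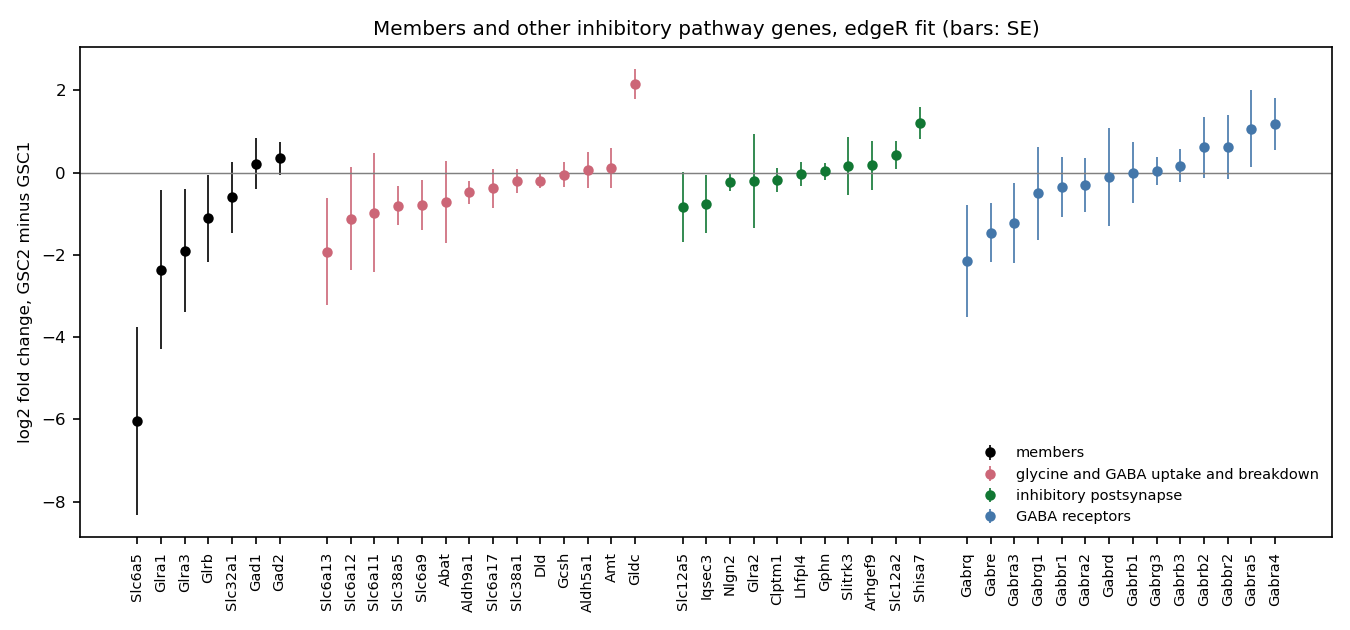
Log2 fold change, GSC2 minus GSC1, of the 7 members (black) and other inhibitory pathway genes by list, with SE bars from the edgeR fit; none of the genes shown passed. Slc6a5 has the lowest fold at -6.03 and the widest error, and Gldc the highest at 2.15.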

How the data were processed

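The labels' protocols name a Qiagen kit for total RNA and a NEB kit for the libraries. Each tumour has 1 deposited table of unnormalized read counts on Ensembl genes. For it the submitters' processing notes list TopHat2 2.0.11 and HTSeq. Builds mm9 and dm3 are named there without a role. The sources used here do not give the strand setting or counting mode, so antisense reads cannot be separated: Gad1os, opposite Gad1, had 3 to 22 reads. The 5 summary lines of each table were left out: 6.19 to 14.2% of the listed reads lay on no gene, 12.8 to 21.0% had no unique position and 0.357 to 0.460% were ambiguous.

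Counts were fitted in R 4.3.3 with edgeR 4.0.16 (TMM, filterByExpr, robust quasi-likelihood, Benjamini-Hochberg adjustment, threshold 0.05), with limma 3.58.1 and DESeq2 1.42.0 as alternatives, after tests on simulated data. The p-values set the difference between the lines against the spread between tumours of a line. They cover no spread between lines of the same genotype. Symbols and longest transcripts came from GENCODE M21, on a later build, whose coordinates served only to find overlapping genes. Promoter windows came from RefSeq (GRCm38.p6).

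Members and lists were chosen with earlier results of these data known. Names follow a rule: all members, 12 fixed pathway genes, up to 3 genes per list by highest mean CPM, and the 8 nearest profiles. Some genes that this rule names are not reported here. Other names are marked as chosen after their values were seen. Every pair of libraries differed beyond sampling noise (lowest chi-square 66.5 per degree of freedom). Other alternatives were RLE and upper-quartile factors, other filters, the neuron score or the replicate number in the model, each tumour left out, and a fit without the 3 libraries poor in long transcripts. The fit without the hindbrain-rich pair was added after seeing the data.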

Additional observations from a re-analysis of the deposited data

Results flagged for a closer look

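In a check of 55 named genes over the 4 GSC1 tumours, 3 had 1 tumour far from the rest, where chance alone would mark about 1 in 20. Glra4 was at 1.11 CPM in GSC1 replicate 3, from 28 reads, and had no read in the other 6 libraries. Hoxb6 was at 53.8 CPM in GSC1 replicate 3. Car8, a Purkinje cell gene, was at 276 CPM in GSC1 replicate 4 and at 2.35 to 15.9 CPM in the other 6 tumours. No member passed this limit. The check did not take in every gene of the lists or every gene named above. Gabra6, at 115 CPM in GSC1 replicate 4 and at most 1.15 CPM in the other GSC1 tumours, is not among the 3.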

How the results depend on the processing

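No member was called in any of the 17 alternatives (a mean of at least 5 CPM leaves out Glra1 and Glra3). The count over all genes was 1 without a filter on low counts, 192 in DESeq2, 1 in limma-voom, 27 with the neuron score as a covariate, 55 without the 3 libraries poor in long transcripts and 44 without the hindbrain-rich pair. Of the other pathway genes 1, Gldc, was called in DESeq2 and in each of the last 2 settings. Deviations of same-numbered tumours of the 2 lines correlated at 0.583, -0.306 and 0.409. Among the GSC2 tumours, GSC1 replicates 1 and 3 correlated best with their own number, and GSC1 replicate 2 with GSC2 replicate 1 (0.699). The labels name no batch, and whether the replicate number stands for one was not tested. With that number as a replicate block 0 genes were called, the folds turned to 0.14 for Glrb and 0.56 for Slc32a1, and that of Slc6a5 was -1.80. They also turned with the neuron score (0.10 for Glrb, 0.46 for Slc32a1, with Slc6a5 at -3.86) and in limma-voom (0.069 for Slc32a1). Without the 3 libraries poor in long transcripts they were 0.61 for Slc6a5, 1.90 for Glra1, 0.68 for Glra3, 1.43 for Glrb, 1.19 for Slc32a1, 1.43 for Gad1 and 1.12 for Gad2, and without the hindbrain-rich pair 0.042, 1.35, 0.27, 1.57, 1.55, 1.42 and 1.05. Both settings leave GSC1 replicates 1 and 2, with neuron levels of 98.5 and 39.6 CPM. With 1 tumour left out at a time the Gad1 fold ran from -0.092, without GSC1 replicate 2, to 0.84, without GSC1 replicate 4. The other 6 kept their direction: without GSC1 replicate 3, Slc6a5 was at -5.09, Glra1 at -1.42, Glra3 at -0.42, Glrb at -0.46 and Slc32a1 at -0.22. Without GSC2 replicate 2, Slc6a5 was at -7.71, Glra1 at -9.62 and Glra3 at -4.53, where GSC2 has 0 reads of Glra1 and 3 of Glra3, so these fits depend on the prior count. Apart from what these settings leave out, the cause was not tested. All 147 member levels under RLE, upper-quartile or no factors stayed within 1 SD of the line's spread, changing by at most 1.10 times. Against Snap25 and Rbfox3 alone, 3 of 49 shares of the neuron level moved by more than that, all in GSC1 replicate 2: 47.7% for Slc32a1, 137% for Gad1 and 143% for Gad2. Depth limits Glra1 and Glra3, which had at most 65 reads outside the hindbrain-rich pair.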

Other observations

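Excitatory and other neuron markers also differed between tumours. Slc17a6, the vesicular glutamate transporter gene of brainstem, thalamus and spinal cord, was at 199 and 97.8 CPM in the hindbrain-rich pair, at 124 CPM in GSC2 replicate 2 and at 2.57 to 18.3 CPM in the other 4. Slc17a7, its cortical and cerebellar counterpart, was highest in GSC2 replicate 3 at 445 CPM. Calb2, the calretinin gene, was at 90.7 to 104 CPM in GSC1 replicates 3 and 4 and GSC2 replicates 2 and 3, and at 1.59 to 3.92 CPM in the other 3. Pvalb, the parvalbumin gene, was at 232 and 282 CPM in the hindbrain-rich pair and at 1.65 to 43.5 CPM in the other 5. Sst, the somatostatin gene, was at 176 CPM in GSC1 replicate 3 and at 13.7 to 53.2 CPM in the other 6.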
